A study of Homo sapiens with 12 samples.

Results

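The MYC, MAX and MXD network is the set of helix-loop-helix leucine zipper factors built around MYC, and it was followed here in 2 human T-cell acute lymphoblastic leukaemia lines treated with the peptide SAHM1. Its 9 genes are MYC, MYCN, MAX, MXD1, MXD3, MXD4, MXI1, MNT and MGA. A probe set was taken as a member when the platform annotation gave it exactly 1 symbol and that symbol was in the list. This gave 27 of the 54675 probe sets on the array, and 8 of the 9 genes had a value, among 19775 genes in all. MXD4 had none, because each of its 3 probe sets also carried the symbol MIR4800. MYC, MXD3 and MXI1 rested on 1 probe set each, MNT on 2, MXD1 on 3, MGA on 4, MAX on 5 and MYCN on 10.

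MYC binds DNA only as a dimer with MAX, at E-box sites, and drives genes of cell growth, ribosome production and metabolism. The MXD proteins, MXI1, MNT and MGA compete for the same partner and the same sites, and MXD1, MXD3, MXI1 and MNT bring in SIN3 repressor complexes there. In T-cell leukaemia MYC is a direct target of NOTCH1, which activates it through a distal enhancer, and it carries much of the growth programme that NOTCH1 drives.

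The 4 groups were KOPT-K1 cells with 20 µM SAHM1, KOPT-K1 cells with DMSO, HPB-ALL cells with 20 µM SAHM1 and HPB-ALL cells with DMSO, each with 3 samples treated for 24 hours and 1 Affymetrix array per sample. SAHM1 is a hydrocarbon-stapled helical peptide from mastermind-like that was made to block the NOTCH transcription complex, and DMSO is its solvent. Both lines carry activated NOTCH1, and each is a single established line, so a difference between them cannot be assigned to any property of leukaemias in general. The question was how MYC, its partner and its antagonists changed with SAHM1 in each line. The deposited values are linear ratios, in which each array was divided by the DMSO average of its own line, and all values here are their log2. A value of 0 is thus the DMSO level of that line, levels cannot be compared between genes or lines, and T-cell markers could not be checked as levels. In these bulk cultures fewer cells that express a gene and less RNA per cell cannot be told apart.

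Some array-wide measures moved with treatment. The 3 probe sets for 18S ribosomal RNA averaged 1.35 to 1.89 in the SAHM1 arrays of HPB-ALL, against -1.65 to 1.05 in its DMSO arrays, where replicate 1 was the highest. In KOPT-K1 the 18S range was -0.39 to -0.14 with SAHM1 and -0.17 to 0.13 with DMSO. The 18 hybridization spike probe sets averaged 0.60 to 1.05 in the SAHM1 arrays of KOPT-K1, against -0.018 to 0.0086 in its DMSO arrays. In HPB-ALL they ranged from -0.71 to -0.31 with SAHM1 and from -0.48 to 0.60 with DMSO. As a covariate each level was fitted with a slope shared by both lines. Treated and control arrays did not overlap in the spike level of KOPT-K1 or in the 18S level of HPB-ALL. A call kept or lost with such a covariate therefore does not show what part of a change goes with that level.

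The sequences below are the 250 bases upstream of the RefSeq start of 3 antagonist genes, from the table for GRCh38.p14. They were chosen because MXD1 moved in opposite directions in the lines, MXD3 was higher in both, and MNT has an E-box. Capitals mark the E-box CACGTG, which reads the same on both strands.
MXD1 promoter, chr2:69914859-69915108, plus strand: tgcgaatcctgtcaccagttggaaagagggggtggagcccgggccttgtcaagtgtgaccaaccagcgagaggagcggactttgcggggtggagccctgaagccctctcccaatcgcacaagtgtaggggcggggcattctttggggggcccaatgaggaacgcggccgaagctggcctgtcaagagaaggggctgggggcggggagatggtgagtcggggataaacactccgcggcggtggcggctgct
MXD3 promoter, chr5:177312753-177313002, minus strand: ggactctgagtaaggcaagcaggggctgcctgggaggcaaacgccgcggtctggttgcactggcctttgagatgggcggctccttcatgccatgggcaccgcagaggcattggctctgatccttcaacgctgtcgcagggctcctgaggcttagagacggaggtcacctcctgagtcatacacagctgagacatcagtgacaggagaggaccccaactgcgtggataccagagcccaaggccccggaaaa
MNT promoter, chr17:2401061-2401310, minus strand: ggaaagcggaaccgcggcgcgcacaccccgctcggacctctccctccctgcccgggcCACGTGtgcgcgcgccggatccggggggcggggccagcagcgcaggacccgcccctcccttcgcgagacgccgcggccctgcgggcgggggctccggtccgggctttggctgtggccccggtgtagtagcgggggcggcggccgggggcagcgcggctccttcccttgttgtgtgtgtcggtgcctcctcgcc
The E-box of MNT begins at position -193 from the start site. Windows were found for 8 of the 9 genes, 13 in all because MXI1 and MGA have 3 each and MAX has 2. MYC had none in the table. CACGTG was in 2 of the 13 windows, those of MNT and MXD4 (at -238), against 6.34% of the 35116 windows of that length in the table. The letters TGGGAA, the core of the RBPJ site through which NOTCH acts, were searched on both strands as a motif added later. They were in 2 of 13 windows, those of MYCN and of the third MXI1 start, against 20.8% of all windows. The 2 motifs do not overlap in any member window. A match of letters is a description and not a bound site.

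MYC was lower with SAHM1 in both lines. In KOPT-K1 its log2 values were -0.69, -0.74 and -0.65 in the SAHM1 arrays, against 0.020, -0.016 and -0.0041 in the DMSO arrays. In HPB-ALL they were -0.53, -0.71 and -0.70 with SAHM1, against -0.075, 0.12 and -0.050 with DMSO. The groups did not overlap in either line, and SAHM1 replicate 1 of HPB-ALL was the least lowered of the 6 treated arrays. The change was -0.69 ± 0.070 in KOPT-K1, a 1.62-fold fall (SE, n = 3 per group, limma adjusted p = 6.16e-05), and -0.65 ± 0.070 in HPB-ALL, a 1.57-fold fall (adjusted p = 0.000218). In KOPT-K1 158 genes (0.799%) had a change as low as that of MYC or lower, and in HPB-ALL 47 genes (0.238%). The difference between lines, as HPB-ALL minus KOPT-K1, was 0.045 ± 0.099, with a 95% interval of -0.17 to 0.26 (adjusted p = 0.798). After quantile normalization, which equalises the distributions of the arrays, the KOPT-K1 change was -0.41 and stayed called (adjusted p = 0.0425, over all alternatives 5.92e-05 to 0.0425). That of HPB-ALL was -0.61, so that the difference between lines turned to -0.20 (adjusted p = 0.490). The ratios hold the DMSO arrays of each line around 0 by construction, so equal distributions can narrow the treated arrays. Under this setting 136 of 19775 genes were called in KOPT-K1, against 3761 in the main fit. This setting cannot tell a lost call from that narrowing. Centring each array on its median instead gave -0.68 for MYC in KOPT-K1. With the spike level as a covariate MYC was at -0.84 ± 0.085 in KOPT-K1 and at -0.58 ± 0.065 in HPB-ALL, and called in both (adjusted p = 0.000385 and 0.00089). In HPB-ALL, with 18S added as a covariate, it was -0.58 ± 0.12 and not called (adjusted p = 0.0919, over all alternatives 6.41e-05 to 0.0919).

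**Figure D1:**
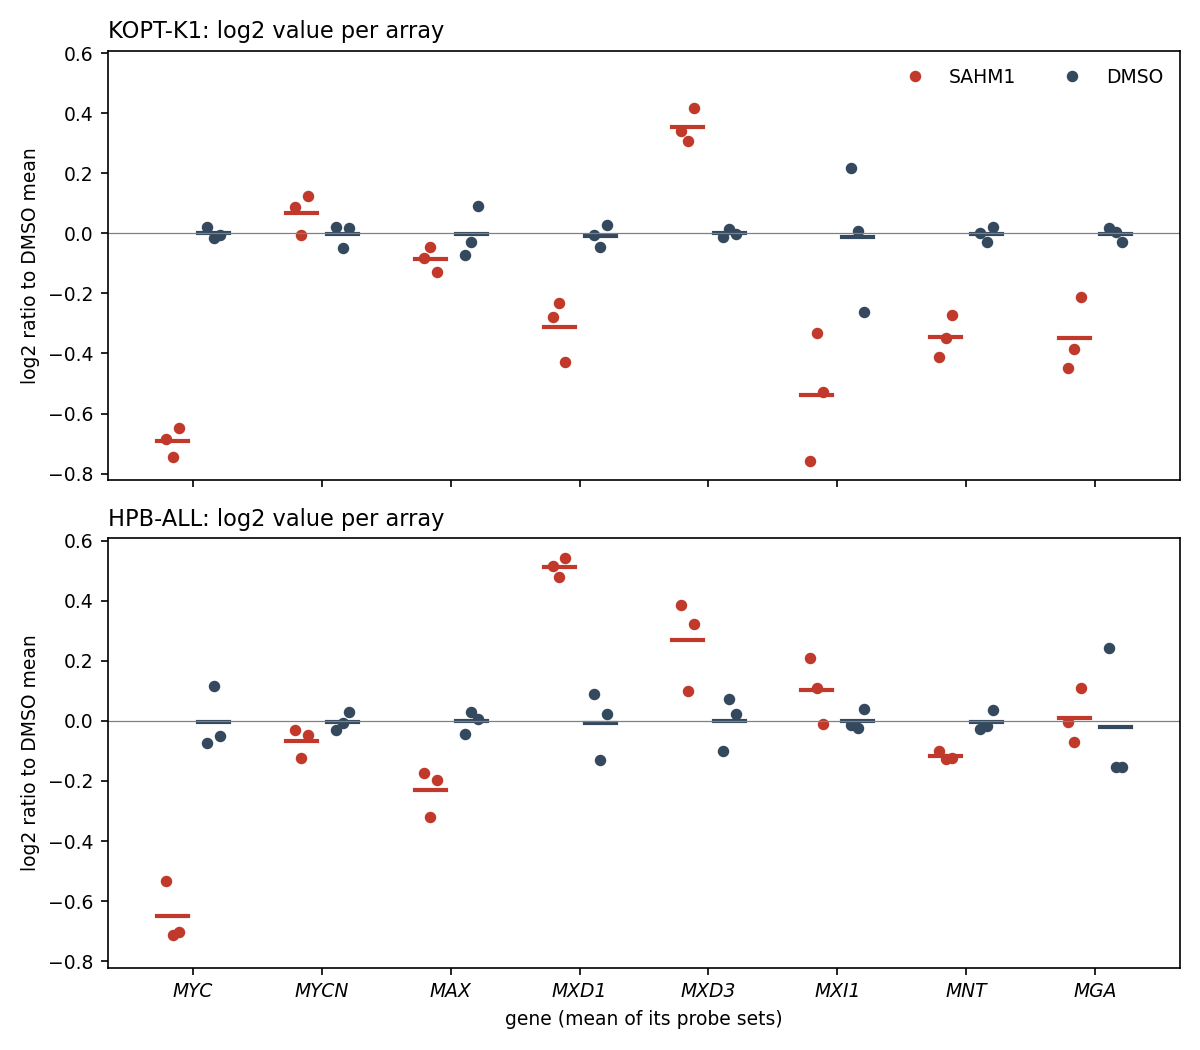
Log2 values of the 8 measured genes in each array of KOPT-K1 (top) and HPB-ALL (bottom), where 0 is the DMSO mean of that line; points are arrays, SAHM1 left of DMSO, and bars are means of 3 arrays. MYC lies below its DMSO arrays in both lines, and MXD1 lies below them in KOPT-K1 and above them in HPB-ALL.

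MYCN, the paralogue of MYC known from neural tumours, passed the test in neither line. Its change was 0.072 ± 0.058 in KOPT-K1 (adjusted p = 0.427) and -0.063 ± 0.058 in HPB-ALL (adjusted p = 0.604), and treated and control arrays overlapped in both. Of its 10 probe sets, 1 was called: 234253_at in KOPT-K1, with 0.089, 0.55 and 0.50 in the SAHM1 arrays and 0.0081, 0.10 and -0.12 in the DMSO arrays (adjusted p = 0.0479). SAHM1 replicate 1 lay within the DMSO range there.

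MAX, the shared partner, was near its DMSO level in KOPT-K1, with a change of -0.082 ± 0.065 (95% interval -0.22 to 0.058, adjusted p = 0.413). In HPB-ALL its values were -0.17, -0.32 and -0.20 with SAHM1, against -0.044, 0.030 and 0.0077 with DMSO. The groups did not overlap, and the change of -0.23 ± 0.065 was called at adjusted p = 0.0431. The call was lost without each of 8 of the 12 arrays, namely all 6 of HPB-ALL, KOPT-K1 DMSO replicate 2 and KOPT-K1 SAHM1 replicate 1 (-0.26 to -0.18), and under 7 of 9 other settings (adjusted p from 0.0189 to 0.887 over the 9). With 18S added as a covariate it was -0.18 (adjusted p = 0.771), and with the spike level -0.22 (adjusted p = 0.119). Its 5 probe sets were split: 208403_x_at, 209331_s_at and 210734_x_at stood at -0.34, -0.40 and -0.36 in HPB-ALL, while 209332_s_at and 214108_at stood at -0.011 and -0.037. Only 209331_s_at was called (adjusted p = 0.0498). The difference between lines for MAX was -0.15 ± 0.091 (adjusted p = 0.299).

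In KOPT-K1, 4 of the 5 measured antagonists fell and MXD3 rose. With MYC, 6 of the 8 genes were called, against 19.0% of all 19775 genes. They were 5 lower and 1 higher, against 13.2% lower and 5.85% higher over all genes. The median change of the 8 was -0.32, against 1.99e-05 over all genes. The same 5 genes had every SAHM1 array below every DMSO array, which was true of 21.6% of all genes, and MXD3 had every one above, true of 13.5%.

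MNT, a broadly expressed MAX partner that represses E-box genes, had -0.41, -0.35 and -0.27 in the SAHM1 arrays of KOPT-K1, against 0.00034, -0.028 and 0.022 in the DMSO arrays. It fell by 0.34 ± 0.056 (adjusted p = 0.00148), and was still called with the spike level as a covariate (-0.36 ± 0.081, adjusted p = 0.0365). This call was lost under quantile normalization alone (-0.20, adjusted p = 0.198, with the other alternatives from 0.00167). The fall lay in 204206_at, at -0.71 ± 0.11, while 236749_at was at 0.024 ± 0.079.

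MXI1, a SIN3-binding MXD relative, had the largest fall among the antagonists by gene value but also the widest spread. Single probe sets of MGA (235409_at at -0.89 and 212945_s_at at -0.65) and MNT (204206_at at -0.71) fell further. The gene values of MGA and MNT also average in probe sets that were not called. The SAHM1 arrays of MXI1 stood at -0.76, -0.33 and -0.53, against 0.22, 0.0068 and -0.26 in the DMSO arrays of KOPT-K1. The highest treated array was only just below the lowest control array. The change was -0.53 ± 0.12 (adjusted p = 0.0100).

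MXD1, which accumulates when blood and epithelial cells differentiate, had -0.28, -0.23 and -0.43 in the SAHM1 arrays, against -0.0056, -0.046 and 0.028 in the DMSO arrays. The groups were apart, and the change was -0.31 ± 0.071 (adjusted p = 0.0106). Its probe sets 226275_at and 228846_at were called at -0.46 and -0.45, while 206877_at was at -0.0027. In 226275_at the highest treated array (-0.38) was only just below the lowest control array (-0.33).

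MGA, a large protein with a T-box and a helix-loop-helix domain that sits in a non-canonical Polycomb complex, had -0.45, -0.39 and -0.21 with SAHM1, against 0.019, 0.0030 and -0.029 with DMSO. The change of -0.35 ± 0.10 passed at adjusted p = 0.0329. Its probe sets did not move alike: 235409_at (-0.89) and 212945_s_at (-0.65) were called, 230848_s_at was at -0.097, and 1564640_at was at 0.26 with every treated array above the controls but no call. The call was lost without each KOPT-K1 DMSO array and without KOPT-K1 SAHM1 replicate 1 or 2 (-0.36 to -0.30, adjusted p up to 0.0957) (over all alternatives 0.0177 to 0.615).

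MXD3, the MXD protein found in dividing cells in S phase, was higher in KOPT-K1. Its values were 0.34, 0.31 and 0.42 in the SAHM1 arrays, against -0.013, 0.013 and -0.00061 in the DMSO arrays. The groups were far apart, and the rise was 0.35 ± 0.077 (adjusted p = 0.0073). With the spike level as a covariate MXD1, MXD3, MXI1 and MGA stood at -0.16, 0.27, -0.60 and -0.25 and were not called (adjusted p = 0.355, 0.207, 0.0966 and 0.387). Under quantile normalization they stood at -0.18, 0.25, -0.30 and -0.20, also uncalled (adjusted p = 0.438, 0.226, 0.499 and 0.615). Over all alternatives the adjusted p ran from 0.00105 to 0.438 for MXD1, from 0.00609 to 0.226 for MXD3 and from 0.0101 to 0.499 for MXI1. The part of the array-wide spike level in these changes was not tested beyond that fit.

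In HPB-ALL MXD1 and MXD3 were higher, MXI1, MNT and MGA passed no test, and MYC and MAX were lower. Of the 8 genes 4 were called, against 9.34% of all genes. They were 2 higher and 2 lower, against 4.96% higher and 4.38% lower over all genes, and their median change was -0.015, against -0.021 over all genes.

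MXD1 in HPB-ALL had 0.52, 0.48 and 0.54 in the SAHM1 arrays, against 0.088, -0.13 and 0.023 in the DMSO arrays. All 3 treated arrays lay well above the controls, and the rise was 0.52 ± 0.071, or 1.43-fold (adjusted p = 0.000928). A rise this large or larger was seen in 201 genes (1.02%). The probe sets 226275_at (0.62) and 228846_at (0.79) were called, the same as in KOPT-K1, and 206877_at was at 0.15. With 18S added as a covariate the change was 0.43 ± 0.12 and not called (adjusted p = 0.226, over all alternatives 0.000170 to 0.226).

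MXD3 in HPB-ALL had 0.38, 0.10 and 0.32 with SAHM1, against -0.10, 0.073 and 0.022 with DMSO. Replicate 2 of SAHM1 was close to the highest control. The change of 0.27 ± 0.077 was barely called (adjusted p = 0.0444), and its only probe set was not called in the fit of all probe sets (adjusted p = 0.101). The call stayed without KOPT-K1 SAHM1 replicate 3 or HPB-ALL SAHM1 replicate 2 and was lost without each of the other 10 arrays (0.21 to 0.31). With 18S added as a covariate it was 0.41 ± 0.12 (adjusted p = 0.273, over all alternatives 0.0362 to 0.273).

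MXI1 in HPB-ALL had 0.21, 0.11 and -0.011 with SAHM1 and -0.015, -0.024 and 0.039 with DMSO, and the groups overlapped (0.10 ± 0.12, adjusted p = 0.699). MNT had -0.099, -0.13 and -0.12 with SAHM1 and -0.028, -0.016 and 0.037 with DMSO. Its groups were apart, as for 15.7% of all genes in that direction, but the change of -0.11 ± 0.056 was not called (95% interval -0.24 to 0.0080, adjusted p = 0.266). MGA stood at 0.033 ± 0.10 (adjusted p = 0.900). Its DMSO replicate 1, the control array with the highest 18S level, was at 0.24, against -0.15 and -0.16 in the other DMSO arrays, and without replicate 1 the MGA change was 0.16. With 18S added as a covariate it turned to -0.27 (adjusted p = 0.685), and with the spike level to -0.011 (adjusted p = 0.982).

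The response of MXD1 differed between the lines. As HPB-ALL minus KOPT-K1, the difference was 0.82 ± 0.10 for MXD1 (95% interval 0.61 to 1.04, adjusted p = 0.000321). It stayed called in all 8 alternatives run and without each of the 12 arrays (0.56 to 1.06, adjusted p from 2.11e-05 to 0.0442). With the 18S level as a covariate it was 0.73 (adjusted p = 0.0346), and with the spike level 0.60 (adjusted p = 0.0442). Each level was nearly tied to treatment in a line, so these kept calls do not show its part in the difference. For MXI1 the difference was 0.63 ± 0.17 (adjusted p = 0.0253). That call was lost without KOPT-K1 DMSO replicate 1 or 2, HPB-ALL DMSO replicate 2, or HPB-ALL SAHM1 replicate 1 or 2 (0.52 to 0.63, adjusted p over all alternatives 0.0264 to 0.462). Of the 8 genes, 2 were called for the difference, against 16.8% of all genes, and both were higher, against 11.4% higher and 5.41% lower over all genes. MNT (0.23 ± 0.079, adjusted p = 0.0685) and MGA (0.38 ± 0.14, adjusted p = 0.0930) were not called, but MNT was without KOPT-K1 SAHM1 replicate 3 (0.26, adjusted p = 0.0449) and MGA without HPB-ALL DMSO replicate 1 (0.51, adjusted p = 0.00838). MXD3 did not pass (-0.083 ± 0.11, 95% interval -0.32 to 0.15).

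Among single probe sets, 9 of 27 were called in KOPT-K1 (2 higher and 7 lower), against 14.6% of all probe sets (4.77% higher and 9.79% lower). In HPB-ALL 4 of 27 were called (2 higher and 2 lower), against 5.15% (3.09% higher and 2.06% lower). For the difference between lines 6 of 27 were called, against 11.7% (8.50% higher and 3.22% lower), and all 6 were antagonist probe sets with the higher response in HPB-ALL. They were 2 of MXD1 (1.08 and 1.24), 2 of MGA (1.30 and 0.57), the MXI1 probe set (0.63) and 204206_at of MNT (0.56). The other probe sets of these genes were not called and did not all go that way. In MGA 1564640_at was at -0.58 (limma adjusted p = 0.104) and 230848_s_at at 0.22. In MXD1 206877_at was at 0.15, and in MNT 236749_at was at -0.10. Probe sets of the same gene share a transcript, so these are not independent observations.

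**Figure D2:**
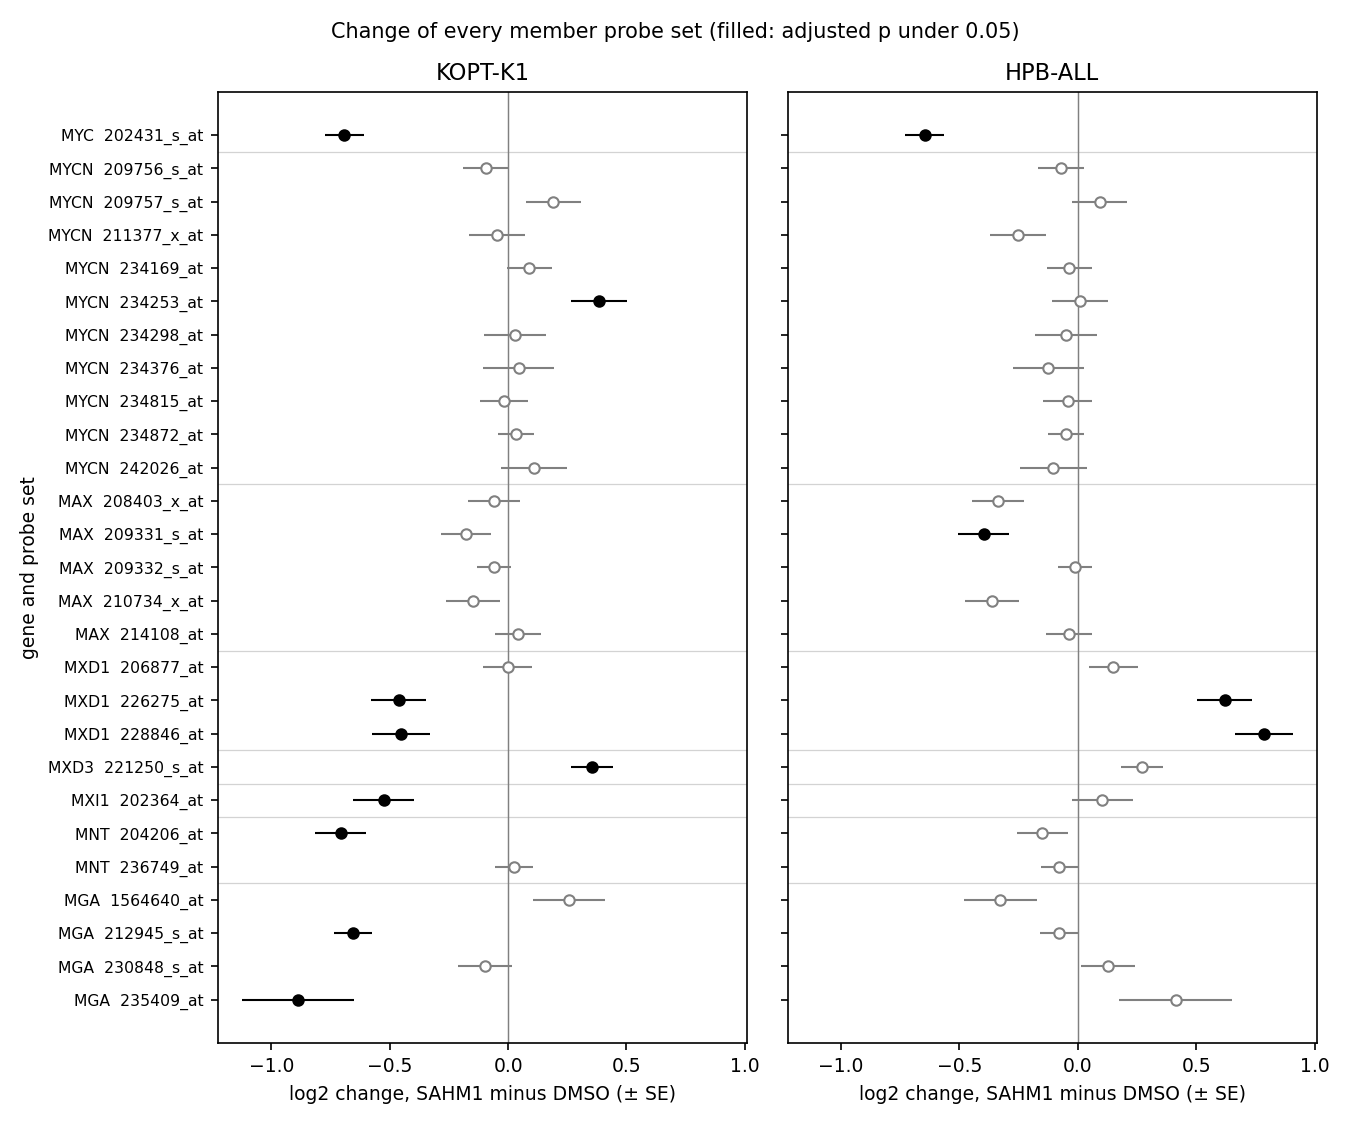
Log2 change with SAHM1 (SAHM1 minus DMSO, bars are ± SE) of all 27 member probe sets in KOPT-K1 (left) and HPB-ALL (right); filled points have a limma adjusted p under 0.05. In KOPT-K1 the 2 called MXD1 probe sets lie at -0.46 and -0.45, and in HPB-ALL they lie at 0.62 and 0.79.

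MYC was set against its antagonists within each array, as the MYC value minus the mean of MXD1, MXD3, MXI1, MNT and MGA. As a score over chosen members it has no p. In KOPT-K1 it was -0.38, -0.55 and -0.44 in the SAHM1 arrays, against -0.023, -0.0061 and 0.044 in the DMSO arrays. In HPB-ALL it was -0.73, -0.81 and -0.87 with SAHM1, against -0.11, 0.17 and -0.043 with DMSO. MYC was thus lower relative to the mean of its antagonists in all 6 treated arrays. This did not hold for every single antagonist: in KOPT-K1 SAHM1 replicate 1, MXI1 stood at -0.76 and MYC at -0.69. The change of the score was -0.46 in KOPT-K1 (SD over arrays 0.086 with SAHM1 and 0.035 with DMSO) and -0.81 in HPB-ALL (SD 0.069 and 0.15). The MYC change was -0.69 in KOPT-K1 and -0.65 in HPB-ALL, while the antagonist mean fell by 0.23 in KOPT-K1 but was 0.16 higher in HPB-ALL. Under quantile normalization the KOPT-K1 score changed by -0.29. With MXD1, MXD3 and MXI1 alone as antagonists the KOPT-K1 score changed by -0.53, and that of HPB-ALL by -0.94. Taken gene by gene, the MYC change minus the antagonist's change in KOPT-K1 ran from -0.17 for MXI1 to -1.05 for MXD3. For MXI1 the SD of that gap over arrays was 0.24 with SAHM1 and 0.23 with DMSO. In HPB-ALL the MYC change minus the antagonist's change ran from -0.53 for MNT to -1.17 for MXD1.

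**Figure D3:**
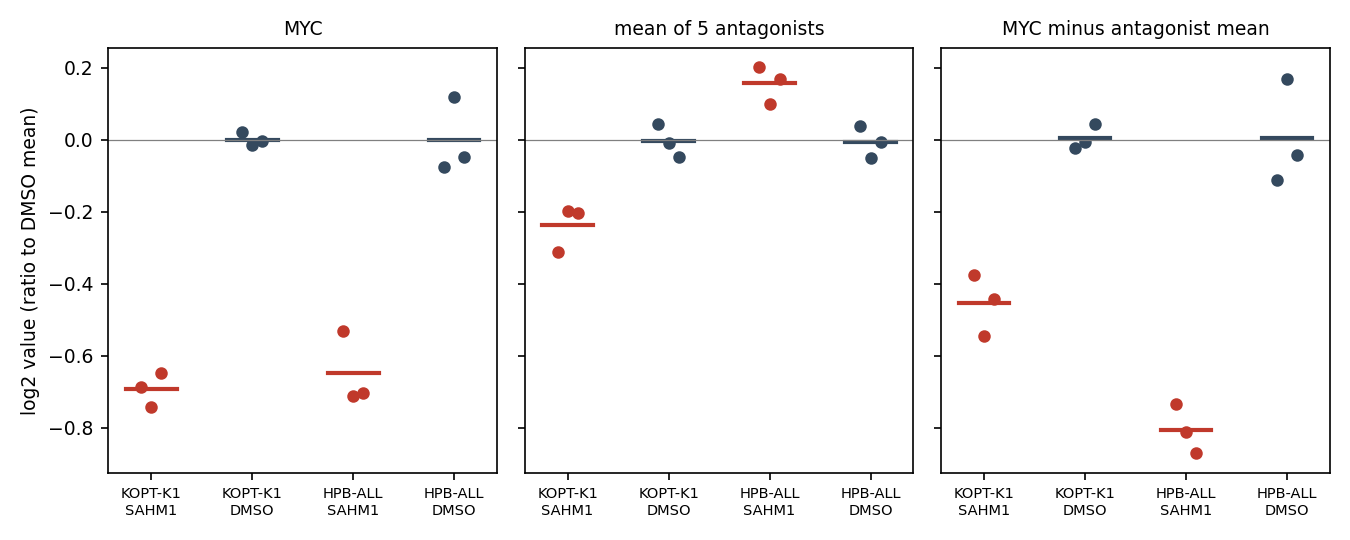
Log2 value of MYC (left), mean log2 value of the 5 measured antagonists (middle) and their difference (right) in each array, with SAHM1 left of DMSO in each line and bars at the mean of 3 arrays. The difference lies at -0.55 to -0.38 in the SAHM1 arrays of KOPT-K1 and at -0.87 to -0.73 in those of HPB-ALL.

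The 5 genes whose values over the 12 arrays were most like those of MYC were YWHAG, HES1, CD300A, PRKCA and KDM1A, with Pearson correlations of 0.978, 0.977, 0.975, 0.974 and 0.974 among 19767 genes. These correlations are a description over arrays that share treatment and line. HES1, a repressor that is itself a NOTCH target, was lower in KOPT-K1 (-0.69 ± 0.052) as well as in HPB-ALL (-0.59 ± 0.052). YWHAG, a 14-3-3 protein, changed by -0.35 ± 0.054 and -0.28 ± 0.054 in the same order, and KDM1A, a histone demethylase, by -0.32 ± 0.064 and -0.31 ± 0.064.

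Around the members, 6 lists with 113 genes, 100 of them measured, covered the rest of the pathway. These lists were compiled with earlier results of these data known, so a count above its share is a description and not independent support. Their counts are to be read against the shares called over all genes, which were 13.2% lower and 5.85% higher in KOPT-K1 and 4.38% lower and 4.96% higher in HPB-ALL. Among 6 measured dimerisation partners and genes of the MLX branch, MYCBP2, a large ubiquitin ligase that binds MYC, fell in KOPT-K1 (-0.31 ± 0.064) and the other 5 passed no test. In HPB-ALL 0 were called by limma and 1 of the 6 had an unadjusted p under 0.05. MLX, the partner of the glucose-sensing factors, was at 0.029 ± 0.060 in KOPT-K1 and -0.17 ± 0.060 in HPB-ALL, and its partner MLXIP at -0.046 ± 0.083 and -0.16 ± 0.083. The 6 probe sets of MLX ran from -0.34 to 0.38 in KOPT-K1, with 1 called.

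Of 14 measured cofactors of MYC and MXD proteins, 6 fell and 1 rose in KOPT-K1 and 3 fell in HPB-ALL, against 13.2%, 5.85% and 4.38% of all genes, so that the single rise was near the background. In both lines 2 were lower. These were MYBBP1A, a nucleolar MYB-binding corepressor (-0.35 ± 0.081 and -0.61 ± 0.081), and the helicase RUVBL1 (-0.24 ± 0.068 and -0.41 ± 0.068). The only RUVBL1 probe set was not called in KOPT-K1 in the fit of all probe sets. WDR5, which anchors MYC on chromatin, fell in KOPT-K1 (-0.44 ± 0.092) and was at -0.20 ± 0.092 in HPB-ALL, not called. The difference between lines for WDR5 was not called (adjusted p = 0.231). The acetyltransferase KAT2A fell in HPB-ALL (-0.50 ± 0.065). Of 15 genes of MYC protein stability, 5 fell and 1 rose in KOPT-K1, and 3 rose and 1 fell in HPB-ALL. The single rise and the single fall were near the shares over all genes (5.85% and 4.38%), and the 5 falls and 3 rises stood against 13.2% and 4.96%. FBXW7, the ubiquitin ligase subunit that marks MYC for breakdown, changed by -0.29 ± 0.071 in KOPT-K1 (3 of 4 probe sets called, range -0.55 to 0.18). It stood at 0.049 ± 0.071 in HPB-ALL, with a difference of 0.34 ± 0.10 (adjusted p = 0.0347). Its probe sets ran from -0.26 to 0.75 for that difference. USP28, which removes that mark, fell in KOPT-K1 (-0.39 ± 0.066) and was at -0.17 ± 0.066 in HPB-ALL, not called. The difference between lines for USP28 was not called (adjusted p = 0.136). AURKA, a mitotic kinase that stabilises MYC proteins, rose in HPB-ALL (0.63 ± 0.097). Of 11 regulators of the MYC transcript, 3 fell and 1 rose in KOPT-K1 and 1 fell in HPB-ALL, against 13.2%, 5.85% and 4.38% of all genes, so that the 2 counts of 1 are no result about the list. LEF1, the partner of beta-catenin, fell in KOPT-K1 (-0.51 ± 0.085) and was at -0.0057 ± 0.085 in HPB-ALL. PVT1, the long non-coding neighbour of MYC, was at 0.019 ± 0.088 and 0.018 ± 0.088 and did not pass in either line.

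Of 36 measured genes that MYC is known to induce, 11 fell and 0 rose in KOPT-K1 (1 rose at an unadjusted p under 0.05), and 17 fell and 1 rose in HPB-ALL. Over all genes 13.2% fell and 5.85% rose in KOPT-K1, and 4.38% fell and 4.96% rose in HPB-ALL. The list's median change was -0.14 in KOPT-K1 and -0.19 in HPB-ALL, against 1.99e-05 and -0.021 over all genes. In both lines 5 fell, namely SRM, MRTO4, PPRC1, PRMT5 and ODC1. In KOPT-K1 no probe set of PRMT5 or ODC1 was called in the fit of all probe sets. SRM, which makes spermidine, was at -0.39 ± 0.091 in KOPT-K1 and -0.93 ± 0.091 in HPB-ALL, and MRTO4, a ribosome assembly factor, at -0.44 ± 0.081 and -0.66 ± 0.081. The transaminase BCAT1 fell in KOPT-K1 (-2.08 ± 0.062) and stood at 0.10 ± 0.062 in HPB-ALL. SHMT2, a serine enzyme, also fell in KOPT-K1 (its 3 probe sets from -1.24 to -0.86) and stood at 0.022 ± 0.054 in HPB-ALL. LDHA, lactate dehydrogenase, fell in HPB-ALL (-0.46 ± 0.053) and stood at -0.098 ± 0.053 in KOPT-K1. The 17 falls in HPB-ALL became 0 with 18S added as a covariate (15 at an unadjusted p under 0.05), where 52 of all genes were called, and 10 under quantile normalization. The 11 falls in KOPT-K1 became 7 with the spike level as a covariate and 2 under quantile normalization.

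Of 18 measured genes that MYC is known to repress, 3 fell and 0 rose in KOPT-K1, and 5 rose and 0 fell in HPB-ALL. The 3 falls were near the share of all genes that fell in KOPT-K1 (13.2%), and the 5 rises stood against 4.96% of all genes in HPB-ALL. At an unadjusted p under 0.05 the rises in KOPT-K1 and the falls in HPB-ALL were also 0. TXNIP, a target of the MLX branch that limits glucose uptake, was at -0.50 ± 0.070 in KOPT-K1 and 1.30 ± 0.070 in HPB-ALL, a difference of 1.80 ± 0.099 (adjusted p = 4.39e-07). KLF6, a zinc finger factor, was at -0.37 ± 0.057 and 0.26 ± 0.057. In HPB-ALL 1 of its 5 probe sets was called, and they ran from -0.11 to 0.51. ITGAL, an integrin chain of T cells, fell in KOPT-K1 (-0.39 ± 0.092) and was at -0.11 ± 0.092 in HPB-ALL. The difference between lines for ITGAL was not called (adjusted p = 0.158). CDKN1B, the inhibitor p27 of cyclin-dependent kinases, rose in HPB-ALL (0.31 ± 0.057), as did ARRDC4 (0.99 ± 0.17), another target of the MLX branch. TXNIP, KLF6, CDKN1B, ARRDC4 and GADD45B were the 5 genes of the list called for the difference between lines. The 5 rises in HPB-ALL became 1 with 18S added as a covariate and 1 under quantile normalization, and the 3 falls in KOPT-K1 became 0 under quantile normalization (3 at an unadjusted p under 0.05).

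**Figure D4:**
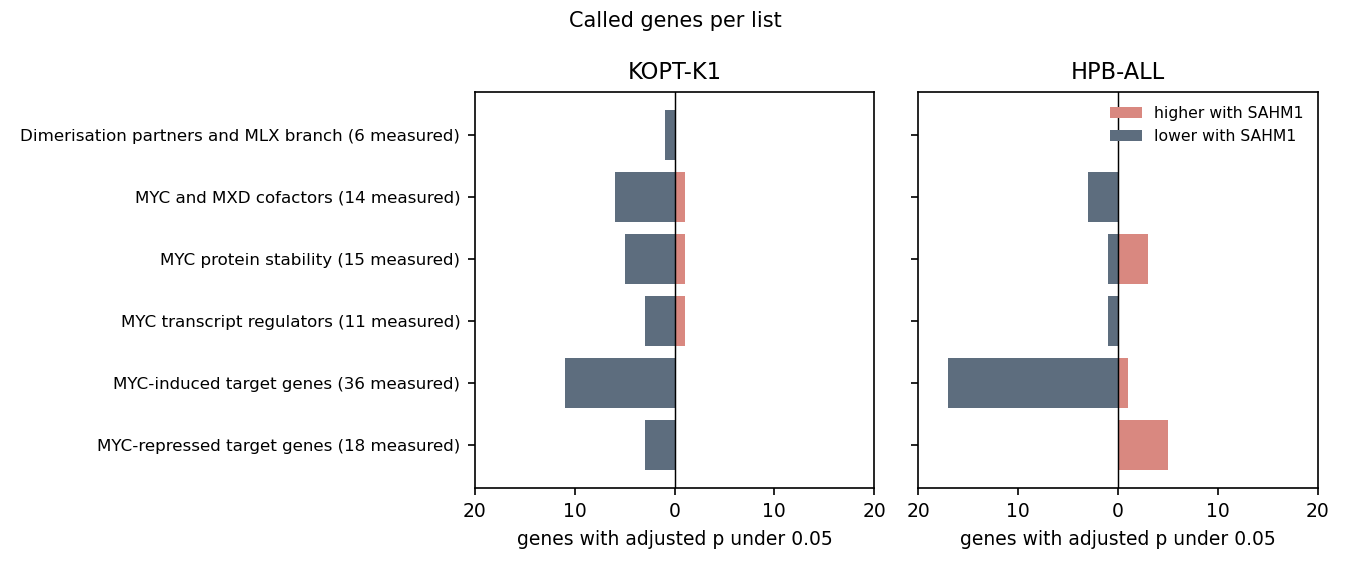
Number of genes per list with a limma adjusted p under 0.05 in KOPT-K1 (left) and HPB-ALL (right); bars to the right count genes higher with SAHM1 and bars to the left genes lower. Of the MYC-induced genes 11 fell in KOPT-K1 and 17 in HPB-ALL, and of the MYC-repressed genes 3 fell in KOPT-K1 and 5 rose in HPB-ALL.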

How the data were processed

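Gene expression was measured on 12 Affymetrix arrays of 54675 probe sets. RMA, which corrects background, normalizes and summarises probes, is named in the submitters' processing notes, with no version in the sources used here. What was deposited are linear ratios: the mean of the 3 DMSO arrays of each line was 1, within 1e-06, in 54675 of 54675 probe sets in both lines, so levels are lost and no filter on low values could be applied. No pair of arrays was identical.

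From the deposited ratios log2 values were taken, without a pseudocount. Of the probe sets 41097 carried 1 symbol, 1801 several and 11777 none in the platform annotation, and 41043 of them were found by gene identifier in RefSeq. The mean of a gene's probe sets gave 19775 genes. The genes and, separately, all probe sets were fitted in R 4.3.3 by limma 3.58.1, with lmFit and eBayes and two-sided tests, over the 12 arrays with the 4 groups as terms (8 residual degrees of freedom, 12.6 after moderation). A feature was called at a Benjamini-Hochberg adjusted p under 0.05 over the whole table. The fit was tested on simulated data with known changes. Arrays have no depth, and their number limits the precision: over genes the standard error of a change had a median of 0.085. Nothing states whether the 3 samples of a group came from separate cultures, so p-values cover only the spread between these samples, which may be technical.

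Named genes are all members, up to 4 genes of each list by smallest p in each comparison, and the 5 genes most correlated with MYC. PVT1, PRMT5, ODC1 and PPRC1 fall outside this rule and were named after their values were seen, the last 3 to complete a count. The members and the lists, compiled from general knowledge, were chosen with earlier results of these data known. MXD4 expression and protein sequences were not analysed here. Normalization, probe-set choice, array weights, covariates, a block on the replicate number and left-out arrays were the alternatives.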

Additional observations from a re-analysis of the deposited data

Results flagged for a closer look

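The response to SAHM1 differed between the lines for MXD1 and MXI1, by the test of the difference itself. For MXD1 the difference, HPB-ALL minus KOPT-K1, was 0.82, from a rise of 0.52 in HPB-ALL and a fall of 0.31 in KOPT-K1. For MXI1 it was 0.63, from a value of 0.10 in HPB-ALL, which passed no test, and a fall of 0.53 in KOPT-K1. The MXI1 call was the weaker of the 2. It stayed in 4 of 8 alternatives and in 7 of 12 fits without an array, against 8 of 8 and 12 of 12 for MXD1. The 18S level, higher by 2.19 with SAHM1 in HPB-ALL, and the spike level, higher by 0.83 with SAHM1 in KOPT-K1, moved with the treatment; the MXD1 difference was 0.73 and 0.60 with each as a covariate and called, and the MXI1 difference was 0.65 and 0.73 and not called. Because each level was nearly tied to treatment in a line, calls kept or lost with it do not show its part in these differences. Groups of 3 arrays are too small for a search for single outlying arrays.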

How the results depend on the processing

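Over 639 values recomputed under alternatives, 520 kept their direction and their side of the threshold (or, for counts and scores, stayed close), 58 lost a call, 3 gained one, 47 counts or scores moved and 11 values changed sign. MYC in KOPT-K1 and the MXD1 difference between lines stayed called in every setting run. MYC has no value without suffixed probe sets. The cause of the other changes was not tested, apart from the fewer probe sets or arrays that some settings hold. Quantile normalization of ratios to the DMSO mean can narrow the treated arrays, so calls lost under it cannot be told from that narrowing. Of 8 member genes, 6 were called in KOPT-K1, against 1 under quantile normalization, 3 without probe sets with the suffix _x_at or _s_at (which leave out MYC and MXD3) and 2 with the spike level as a covariate. In HPB-ALL 4 were called, against 2 under quantile normalization, 1 without those probe sets, 2 on the arrays of that line alone, 0 with the 18S level (3 at an unadjusted p under 0.05 by limma) and 2 with the spike level. Same-numbered samples did not deviate together more than others (correlations from -0.055 to 0.068, against -0.077 to 0.062 for differently numbered samples). With 3 arrays per group this check cannot exclude that the numbers pair them. With the replicate block 2 genes were called in HPB-ALL and 1 for the difference between lines, and MGA in KOPT-K1 (adjusted p = 0.0514), MAX and MXD3 in HPB-ALL (0.117 and 0.116) and the MXI1 difference (0.0537) lost their calls. For the difference 2 were called, against 1 under quantile normalization, 1 with either covariate and 4 at an unadjusted p under 0.05. Of the 27 probe sets, 9 were called in KOPT-K1, against 0 under quantile normalization (5 at an unadjusted p) and 2 with the spike level, and 4 in HPB-ALL, against 1, 2 with the spike level, 0 with the 18S level (5 at an unadjusted p) and 7 at an unadjusted p. Leaving out 1 array at a time gave 5 to 6 genes in KOPT-K1, 2 to 4 in HPB-ALL and 1 to 3 for the difference, and 4 to 8 and 2 to 4 probe sets in KOPT-K1 and HPB-ALL. The counts moved by over 1.5 times in HPB-ALL genes without any HPB-ALL DMSO replicate, HPB-ALL SAHM1 replicate 1 or 3, KOPT-K1 DMSO replicate 2 or KOPT-K1 SAHM1 replicate 1. So did the gene count for the difference without the 5 arrays named for MXI1, the KOPT-K1 probe-set count without DMSO replicate 1 or 3 or SAHM1 replicate 3, and the HPB-ALL probe-set count without DMSO or SAHM1 replicate 2. MYC in HPB-ALL was at -0.58 with the 18S level (adjusted p = 0.0919). Uncalled values that changed sign were MAX in KOPT-K1 without the suffixed probe sets (0.041), and MGA in HPB-ALL with the 18S level (-0.27), with the spike level (-0.011) and without an array (-0.033 to 0.16). So did the difference between lines of MYC under quantile normalization (-0.20) and without an array (-0.013 to 0.11), and that of MXD3 with the 18S level (0.072), with the spike level (0.045) and without an array (-0.14 to 0.00087). MYC minus antagonists was -0.29 in KOPT-K1 under quantile normalization, and -0.53 and -0.94 in KOPT-K1 and HPB-ALL with MXD1, MXD3 and MXI1 alone. Alternatives for the target lists were chosen after seeing the data. MYC-induced genes called lower in KOPT-K1 were 7 with the spike level and 2 under quantile normalization, and in HPB-ALL 0 with the 18S level and 10 under quantile normalization. MYC-repressed genes called lower in KOPT-K1 were 0 under quantile normalization, and those called higher in HPB-ALL were 1 with the 18S level and 1 under quantile normalization. Without HPB-ALL DMSO replicate 1 these 4 counts stayed within 1.5 times. Of the alternatives, a filter on low values could not be run because the ratios hold no levels.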
